A study of Mus musculus with 8 samples.

Results

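The smooth muscle contractile programme is the set of genes that gives arterial smooth muscle cells their ability to contract. It was followed here as 33 genes chosen by name: actin and myosin filament genes, their regulators, cytoskeletal and adhesion genes, ion channels and receptors, and the transcription factor pair that drives many of them. All 33 were present among the 24391 gene symbols of the deposited table, and all 33 passed the filter on low counts that kept 15980 genes. The samples were atherosclerotic lesions of the brachiocephalic artery, a short vessel at the aortic arch, from 8 C57BL/6 mice of a smooth muscle lineage tracing line described as wild type. All 8 had eaten a Western diet for 18 weeks. The 4 mice of one group received an antibody against interleukin-1β (IL-1β), an inflammatory cytokine, and the 4 control mice received immunoglobulin G (IgG). The driver and reporter alleles of the line, and any other allele that all the mice carry, are not given in the sources used here.

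Contraction of smooth muscle rests on sliding of actin filaments along smooth muscle myosin, which is switched on when a calcium-dependent kinase phosphorylates the myosin light chain. Many genes of the machinery share a DNA element, the CArG box, bound by serum response factor (SRF), which turns on the smooth muscle genes together with its coactivator myocardin. In atherosclerotic lesions, smooth muscle cells are known to lose these transcripts as they change phenotype, while the cells of the underlying media keep them.

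Assigned counts ranged from 20137336 to 29453014 per library. IgG animal 2 and antibody animal 3 had the lowest shares of alignments assigned to genes (24.4% and 27.9%, against 29.6% to 34.9% in the other 6). IgG animal 2 also had the highest summed level of the cardiac muscle list, and antibody animal 3 that of the adipocyte list. Each member's range of fold changes with 1 animal left out is given with the limits at the end. Levels are counts scaled to library size (CPM) after trimmed-mean scaling of library sizes. Because each library is whole tissue, fewer smooth muscle cells and less RNA per cell cannot be told apart.

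The defining markers of smooth muscle were present in every library. The lowest value of any of Acta2, Myh11, Tagln, Cnn1, Smtn and Lmod1 in any animal was 27.0 CPM, for Cnn1 in antibody animal 3. The contractile programme did not differ detectably between the treatments. Tested in edgeR (quasi-likelihood F-test, p adjusted over all genes by Benjamini-Hochberg), 0 of the 33 members passed 0.05 (background 0% of genes), as in DESeq2 on the same genes. At an unadjusted p under 0.05 there were 0 members, where the background was 3.19% of genes. No member had groups that did not overlap, against 1.96% of all genes. Log2 fold changes, given as antibody over IgG, had a median of 0.02 for the members and -0.01 for all genes, and 20 of 33 were above 0 (background 47.7%).

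That balance turned on single animals. Without antibody animal 2, 7 of 33 members were above 0 and the median was -0.15. Leaving out antibody animal 4 gave 8 of 33 and a median of -0.04. Without antibody animal 3 the count was 27 and the median 0.16. Leaving out both IgG animal 2 and antibody animal 3 gave 31 of 33 and a median of 0.15. For 27 of the 33 members the 95% interval of the fold change lay within 2-fold in either direction (background 81% of genes). The 6 others were Myl9, Cnn1, Tagln, Synpo2, Itga8 and Kcnmb1, each with an upper bound past 2-fold, so a rise of that size lay inside their intervals.

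**Figure D1:**
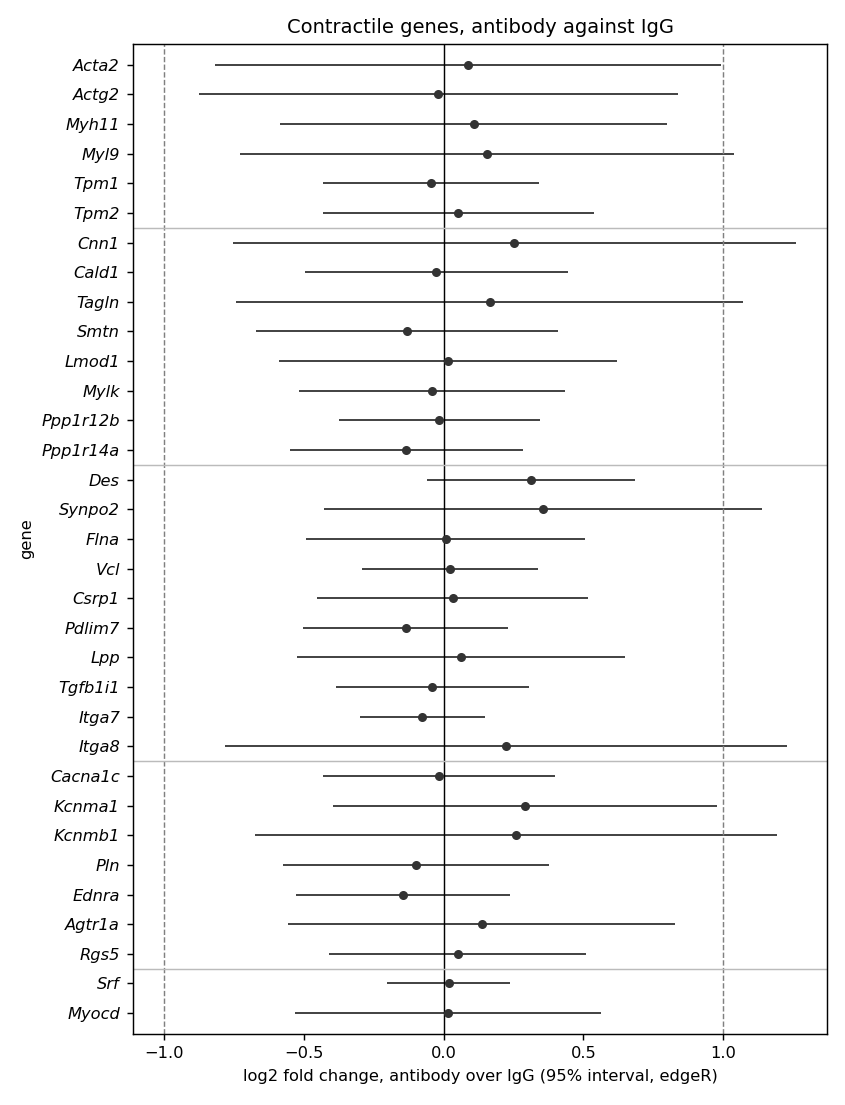
Log2 fold change of each of the 33 genes, antibody over IgG, with its 95% interval from the edgeR fit (x axis), grouped by role (y axis, grey lines between roles). Every interval crosses 0, and the dashed lines mark a 2-fold change. Srf and Itga7 have the narrowest intervals, Cnn1 and Itga8 the widest.

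Srf encodes the factor that binds the CArG box. Its values were 33.8, 37.5, 33.4 and 32.4 CPM in IgG animals 1 to 4 and 32.7, 34.9, 33.1 and 38.0 CPM in antibody animals 1 to 4. The 8 values lay within 1.17-fold of each other and the groups overlapped. Its log2 fold change was 0.02 ± 0.10 (SE), with a 95% interval of -0.20 to 0.24. The spread of Srf within groups, an SD of 0.094 on the log2 scale, was at percentile 5.38 of all genes.

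Myocd encodes myocardin, the coactivator that gives SRF its smooth muscle targets. IgG animals had 34.8, 34.5, 37.9 and 35.6 CPM, and antibody animals 30.7, 45.3, 19.8 and 48.6 CPM. The IgG values lay within 1.10-fold of each other and inside the range of the antibody values, which spanned 2.46-fold with antibody animal 3 lowest and animal 4 highest. The log2 fold change was 0.02 ± 0.24 (SE). Whether the spread of Myocd differed between the groups was not tested.

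Upstream sequences are shown for 4 members: Srf, with little spread between animals, and Acta2, Myl9 and Vcl, lowest in the same animal as Myocd. That animal, antibody animal 3, was lowest for 24 of 33 members, so this does not set Acta2, Myl9 and Vcl apart. Srf was lowest in IgG animal 4. Cacna1c, which held only looser matches to the CArG box, is not shown and was lowest in IgG animal 3. Whether the motif goes with a member's order of animals was not tested. RefSeq promoters (GRCm38.p6) were matched by symbol for 26 of the 33 members, and the 250 bases before the transcription start were searched for the CArG box. This 10-base motif, a pair of C, 6 bases that are A or T, and a pair of G, is its own reverse complement, so a search of one strand covers both. Tagln, Itga7, Actg2, Agtr1a, Myocd, Tgfb1i1 and Myh11 were not matched. The 26 members had 32 promoters, since some have more than 1. The motif was found in 3 of these 32 (9.38%), those of Srf, Myl9 and Vcl, and in 1.47% of all 32851 promoters. With at least 5 of the 6 central bases A or T, it was found in 6 of the 32 (18.8%), adding Acta2 and Cacna1c, and in 8.59% of all promoters. The members were chosen by name from a programme already known to share this motif, so their higher share is not an independent result. Sequence outside the 250 bases was not searched. Capitals mark each match, looser ones included.
Srf (chr17:46556163-46556412, minus strand): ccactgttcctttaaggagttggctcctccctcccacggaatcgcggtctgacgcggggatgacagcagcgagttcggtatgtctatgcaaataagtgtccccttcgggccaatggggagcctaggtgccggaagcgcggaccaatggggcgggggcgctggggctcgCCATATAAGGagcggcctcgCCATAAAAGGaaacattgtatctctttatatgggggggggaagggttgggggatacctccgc
Myl9 (chr2:156775214-156775463, plus strand): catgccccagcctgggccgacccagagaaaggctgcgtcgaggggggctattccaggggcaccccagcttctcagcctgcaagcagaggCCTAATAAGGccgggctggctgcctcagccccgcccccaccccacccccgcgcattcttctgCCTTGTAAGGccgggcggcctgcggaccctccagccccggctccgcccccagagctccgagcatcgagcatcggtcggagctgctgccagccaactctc
Vcl (chr14:20929148-20929397, plus strand): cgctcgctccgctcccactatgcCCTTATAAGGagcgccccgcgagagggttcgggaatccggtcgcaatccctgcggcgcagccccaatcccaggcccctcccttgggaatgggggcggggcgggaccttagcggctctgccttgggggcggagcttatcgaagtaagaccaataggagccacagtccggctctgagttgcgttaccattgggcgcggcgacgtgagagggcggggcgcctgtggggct
Acta2 (chr19:34255374-34255623, minus strand): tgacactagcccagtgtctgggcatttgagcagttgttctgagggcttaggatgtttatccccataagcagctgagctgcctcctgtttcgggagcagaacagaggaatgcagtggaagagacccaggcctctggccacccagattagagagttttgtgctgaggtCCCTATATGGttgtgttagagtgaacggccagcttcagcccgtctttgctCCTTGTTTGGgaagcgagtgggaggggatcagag

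Srf held 2 full matches, CCATATAAGG at 82 to 73 bases before its own start and CCATAAAAGG at 62 to 53 bases before it. Myl9 held the full match CCTAATAAGG at 161 to 152 bases and the looser CCTTGTAAGG at 99 to 90 bases before its start, and Vcl held CCTTATAAGG at 227 to 218 bases. Acta2 held only looser matches, CCCTATATGG at 84 to 75 bases and CCTTGTTTGG at 34 to 25 bases. These are letters in a window, not measured binding.

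Among the filament genes, Acta2, which encodes smooth muscle α-actin (mm9, chromosome 19, 34314826 to 34329863), had 703, 408, 928 and 735 CPM in the IgG animals. The antibody animals had 507, 1108, 304 and 1029 CPM. Antibody animals 2 and 4 were above every IgG animal and antibody animal 3 was below all of them, so the antibody values enclosed the IgG values. Myh11, the smooth muscle myosin heavy chain (mm9, chromosome 16, 14194620 to 14291501), had 1334, 1006, 817.5 and 926 CPM with IgG and 861, 1652, 587 and 1297 CPM with the antibody. Its antibody values also enclosed the IgG values, with the extremes in antibody animals 2 and 3, but antibody animal 4 was below IgG animal 1. The log2 fold changes were 0.09 ± 0.40 (SE) for Acta2 and 0.11 ± 0.31 for Myh11.

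Myl9, the regulatory light chain that is phosphorylated at the start of contraction, had 184, 101, 209.5 and 167 CPM with IgG and 129, 291, 75.0 and 241 CPM with the antibody. Antibody animal 3 was again lowest and antibody animal 2 highest, a 3.88-fold range. Actg2, the actin isoform that prevails in gut and bladder muscle, was low, at 13.6, 13.7, 29.2 and 19.4 CPM with IgG and 14.7, 23.0, 8.18 and 29.0 CPM with the antibody. It is similar in sequence to Acta2, and reads placed at both genes were left out of the counts of both. The levels of Actg2 and Acta2 are therefore uncertain, by an amount that was not measured. Tpm1 and Tpm2, the tropomyosins that lie along the filament, varied less. Tpm1 had 276, 259, 285 and 263 CPM with IgG, within 1.10-fold, and 232, 336, 191 and 291 CPM with the antibody, within 1.76-fold. Tpm2 ranged from 111 to 132 CPM with IgG and from 76.9 to 170 CPM with the antibody. Tpm1 is also transcribed in non-muscle cells, and its isoforms were counted together.

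Most filament regulators that mark differentiated smooth muscle had the same high and low animals as the filament genes. Tagln, the actin-binding protein SM22, had 368, 207, 532.5 and 381 CPM with IgG and 284, 611, 184 and 588 CPM with the antibody. Cnn1, calponin, had 71.7, 35.2, 83.1 and 66.2 CPM with IgG and 47.1, 112, 27.0 and 119 CPM with the antibody. In both genes antibody animal 3 was lowest and IgG animal 2 next, while antibody animals 2 and 4 were highest. Lmod1, leiomodin, a nucleator of actin filaments, had 108, 80.4, 75.2 and 75.3 CPM with IgG and 73.7, 128, 47.0 and 94.0 CPM with the antibody. The log2 fold changes were 0.16 ± 0.40 (SE), 0.25 ± 0.45 and 0.01 ± 0.27 for Tagln, Cnn1 and Lmod1.

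The genes that set light chain phosphorylation had smaller ranges. Mylk, the light chain kinase, lay between 198.5 and 396 CPM over the 8 animals. Ppp1r12b, a targeting subunit of myosin phosphatase, lay between 49.97 and 82.8 CPM, and Ppp1r14a, the phosphatase inhibitor CPI-17, between 6.00 and 10.6 CPM. Cald1, caldesmon, which restrains actomyosin, lay between 158 and 304 CPM. All 4 had their lowest value in antibody animal 3 and their highest in antibody animal 2, and their log2 fold changes lay between -0.13 and -0.02. That of Ppp1r14a was -0.0050 without antibody animal 3.

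Smtn, smoothelin, a protein of contractile smooth muscle filaments, did not follow the other regulators. It had 343, 473, 206 and 247 CPM with IgG and 309, 319, 284 and 247 CPM with the antibody. The highest and the lowest values were both in IgG animals, 2 and 3, and the antibody values lay between them. IgG animal 2, highest for Smtn, was the IgG animal with the lowest Acta2, Tagln and Cnn1. Its log2 fold change was -0.13 ± 0.24 (SE), and 0.13 without IgG animal 2. In that library the cardiac marker sum and the share of the ribosomal precursor transcript Rn45s were also highest (278 CPM and 7.12% of counts, against 67.2 to 158 CPM and 1.76% to 4.09% in the other 7); their part in the Smtn value was not tested.

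**Figure D2:**
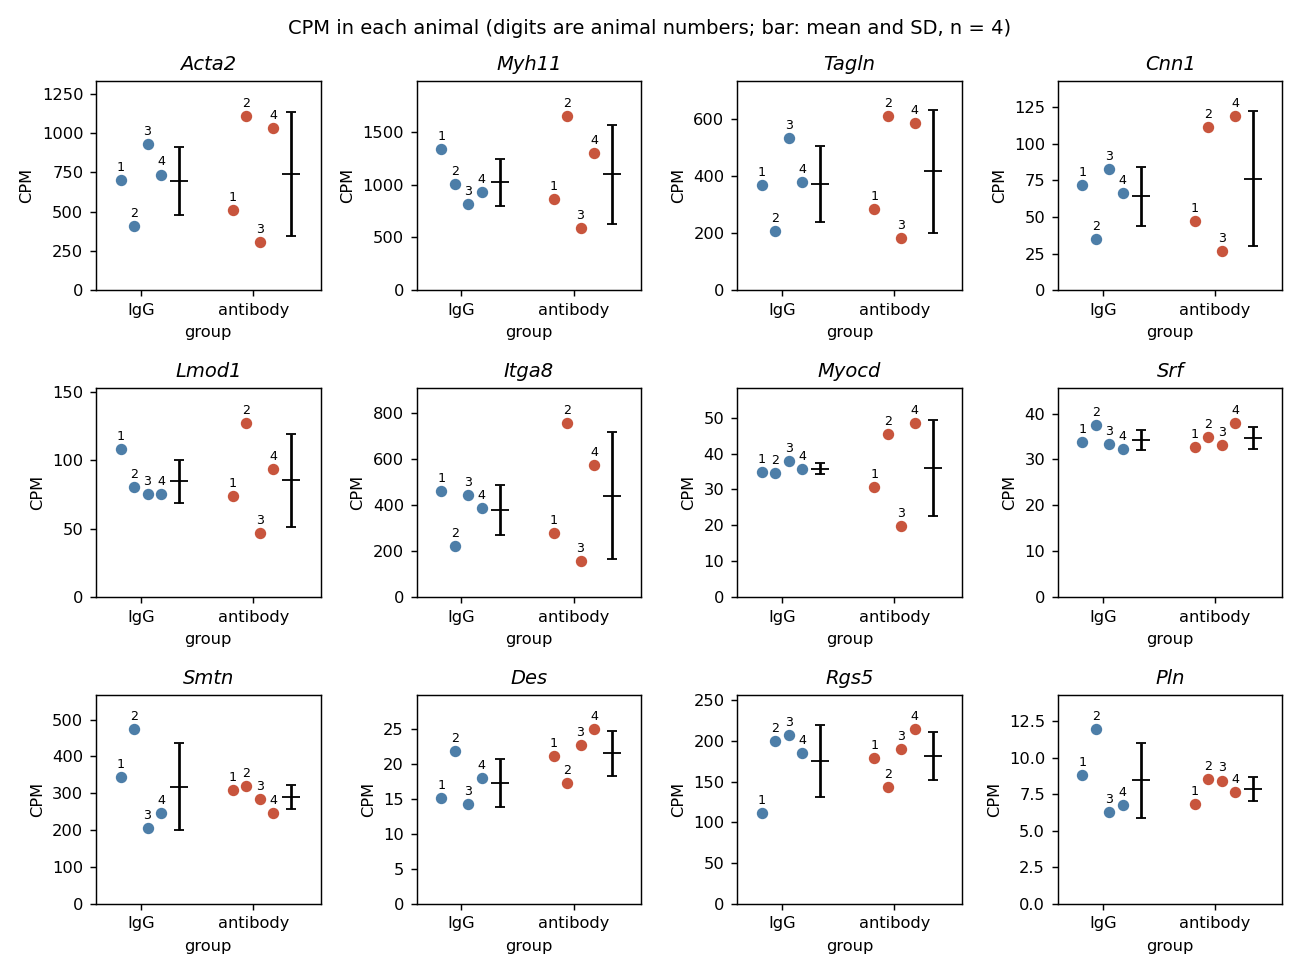
CPM (y axes, from 0) of 12 genes in each of the 4 IgG and 4 antibody animals (x axes; digits are animal numbers), with group mean and SD (n = 4). In Acta2, Tagln, Cnn1 and Itga8 the antibody values split into high (animals 2 and 4) and low (animals 1 and 3), while Srf stays between 32.4 and 38.0 CPM.

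In the cytoskeleton and adhesion group, Des had the smallest p of all 33 members. It encodes desmin, the intermediate filament of muscle, and had 15.1, 21.9, 14.3 and 17.9 CPM with IgG and 21.1, 17.2, 22.7 and 24.9 CPM with the antibody. Antibody animals 3 and 4 were above every IgG animal, antibody animals 1 and 2 were below IgG animal 2, and the groups overlapped. The log2 fold change of 0.31 ± 0.17 (SE, 95% interval -0.06 to 0.69) had an unadjusted p of 0.0899 and an adjusted p of 0.9997 in edgeR. It was positive in all 14 alternative analyses, with values from 0.23 to 0.44. The unadjusted edgeR p fell to 0.0174 without IgG animal 2, to 0.0458 without antibody animal 2 and to 0.0369 without both IgG animal 2 and antibody animal 3. With any other single animal left out it rose, to between 0.123 (IgG animal 4) and 0.227 (antibody animal 4), and with the replicate block to 0.140. Skeletal and cardiac muscle also express Des. Skeletal marker sums ranged from 12.4 to 81.1 CPM with IgG and from 6.56 to 51.7 CPM with the antibody, and cardiac marker sums from 67.2 to 278 and from 81.9 to 118 CPM. IgG animal 2 had the highest value of each sum and the highest Des value of the IgG animals. The part of these sums in the Des values was not tested. The exons of Des overlap those of an opposite-strand gene model. The counting command shows no option for strand, so reads over both would be left out of its counts.

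Synpo2, an actin-bundling protein of muscle, had the largest fold change, 0.36 ± 0.35 (SE), from 140, 93.7, 100 and 102 CPM with IgG and 93.5, 226, 64.8 and 173 CPM with the antibody. Its antibody values again spanned the IgG values, with animals 2 and 4 above all of them and animals 1 and 3 below all of them. The fold change was 0.02 without antibody animal 2 and 0.59 without antibody animal 3. Flna, filamin A, an actin cross-linker of most cell types, was the member with the highest level per kilobase. It had 3160, 2957, 2939 and 2950 CPM with IgG, within 1.07-fold, and 2746, 4104, 2028 and 3189 CPM with the antibody, within 2.02-fold. Csrp1, an actinin-binding LIM protein, had 250, 198, 314 and 260.0 CPM with IgG and 218, 341.5, 184 and 301 CPM with the antibody.

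The integrin chains of smooth muscle differed in how much they varied. Itga8, the α8 chain, had 459.5, 221, 443 and 386 CPM with IgG and 277, 757, 155.0 and 572.5 CPM with the antibody, the widest range of the 33 members at 4.88-fold. Itga7, the laminin-binding α7 chain, had 88.8, 84.9, 73.1 and 77.3 CPM with IgG and 83.1, 76.8, 73.0 and 74.6 CPM with the antibody. Its range was 1.22-fold, and its within-group SD of 0.11 log2 units was at percentile 7.90 of all genes. Both were lowest in antibody animal 3. Among the adhesion plaque genes, Vcl (vinculin) lay between 231 and 324 CPM, Lpp between 285 and 653 CPM and Tgfb1i1 (Hic-5) between 26.6 and 43.4 CPM, each lowest in antibody animal 3. Pdlim7, a LIM protein of actin fibres, had 66.2, 82.4, 53.7 and 49.9 CPM with IgG and 57.4, 64.8, 50.6 and 56.5 CPM with the antibody, and was highest in IgG animal 2.

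The potassium channel genes shared their highest animal with most filament genes, antibody animal 2. Kcnmb1, the smooth muscle β subunit that tunes the large-conductance calcium-activated potassium channel, had 17.0, 8.62, 16.9 and 12.4 CPM with IgG and 12.4, 28.6, 5.95 and 18.7 CPM with the antibody, a 4.80-fold range. Kcnma1, which encodes the pore of that channel, had 35.9, 17.3, 29.0 and 27.9 CPM with IgG and 33.6, 51.8, 18.3 and 30.9 CPM with the antibody. Both were highest in antibody animal 2 and low in IgG animal 2 and antibody animal 3. Their log2 fold changes were 0.26 ± 0.42 and 0.29 ± 0.31 (SE). That of Kcnma1 was 0.0042 without antibody animal 2, 0.12 without IgG animal 2 and 0.49 without antibody animal 3.

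The calcium handling and receptor genes did not share that order. Cacna1c, the pore of the L-type calcium channel, lay between 47.0 and 80.7 CPM and was highest in IgG animal 2. Pln, phospholamban, which restrains the calcium pump of the sarcoplasmic reticulum, had 8.79, 11.9, 6.31 and 6.78 CPM with IgG and 6.83, 8.55, 8.44 and 7.65 CPM with the antibody. Pln and Cacna1c are also cardiac genes, and IgG animal 2 was the library with the highest cardiac marker sum. There Nppa, the atrial natriuretic peptide gene, had 67.4 CPM and Myh6, the cardiac myosin heavy chain, 59.6 CPM, against at most 2.27 and 4.25 CPM elsewhere. Their part in the Pln value was not tested. Without IgG animal 2 the log2 fold change of Pln was 0.11, against -0.10 ± 0.21 (SE) with all animals.

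Ednra, the endothelin A receptor, had 14.7, 16.7, 20.8 and 21.6 CPM with IgG and 17.3, 19.98, 12.9 and 16.5 CPM with the antibody, a log2 fold change of -0.15 ± 0.17 (SE) with overlapping groups, and -0.04 without antibody animal 3, its lowest. Agtr1a, an angiotensin II receptor, was the least abundant member for its length, at 3.53 to 10.8 CPM with IgG and 5.91 to 7.57 CPM with the antibody. Its unadjusted edgeR p was 0.670, and 0.0313 without IgG animal 1, the animal with the highest value. Rgs5, a regulator of G-protein signalling abundant in pericytes and arterial smooth muscle, had 111, 200, 207.5 and 185 CPM with IgG and 179, 144, 191 and 214 CPM with the antibody. Rgs5 was low where the contractile genes were not: its lowest values were in IgG animal 1 and antibody animal 2.

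Many of the 33 genes shared their highest and their lowest animal. Antibody animal 3 had the lowest value for 24 of 33 members and antibody animal 2 the highest for 19, where those animals were lowest for 14.6% and highest for 9.59% of all genes. Both held together for 18 members (54.5%), against 3.32% of all genes. The members are not independent of one another, so these counts describe the animals and carry no test. The 9 members with their lowest value elsewhere were Smtn, Des, Pdlim7, Cacna1c, Kcnma1, Pln, Agtr1a, Rgs5 and Srf. By role, all 6 filament genes and 7 of 8 filament regulators were lowest in antibody animal 3, as were 8 of 10 cytoskeleton and adhesion genes, 2 of 7 channel and receptor genes and Myocd.

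**Figure D3:**
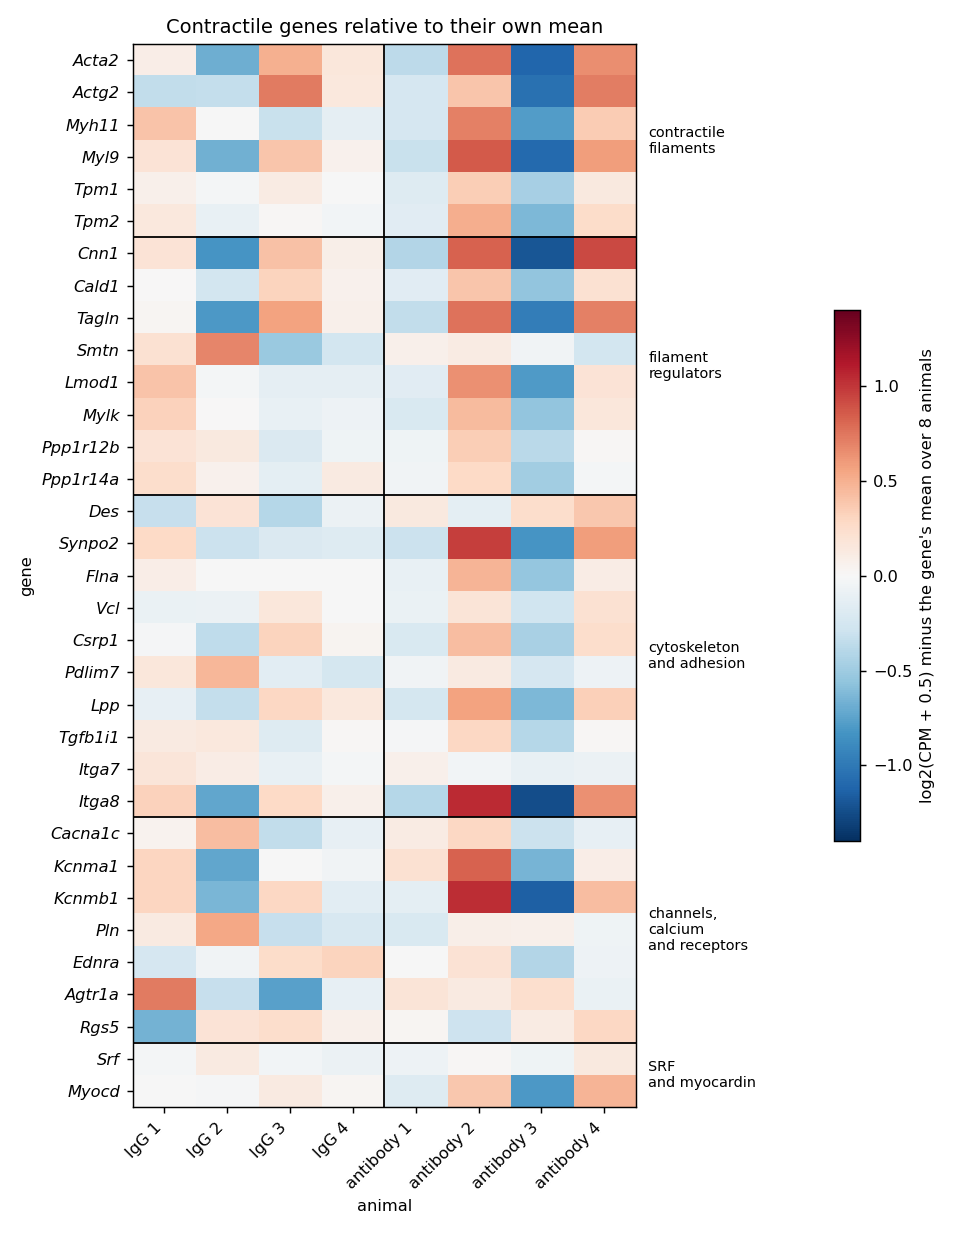
Each of the 33 genes (rows, grouped by role) in each animal (columns), as log2(CPM + 0.5) minus that gene's mean over the 8 animals (colour scale). The column of antibody animal 3 is blue for most rows and that of antibody animal 2 red, while Smtn, Pdlim7, Cacna1c and Pln are highest in IgG animal 2.

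The antibody animals were more spread than the IgG animals in this programme. For 24 of 33 members (72.7%) the SD of log2(CPM + 0.5) was larger among antibody animals, against 34.3% of all genes. The count was 24 without antibody animal 2 (31.6% of all genes) and 22 without antibody animal 3 (28.9%). The median ratio of the highest to the lowest animal was 1.55 among IgG and 1.92 among antibody animals for the members, and 1.53 and 1.39 for all genes. No test of the difference in spread was run. The median within-group SD, pooled over both groups, was 0.35 log2 units for the members and 0.25 for all genes, and 28 of 33 members lay above the median gene. Cnn1, Itga8, Kcnmb1 and Acta2 varied most among the members, at percentiles 97.5, 97.4, 96.1 and 96.1 of all genes.

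Summed over the 33 genes, the programme took 9434, 7985, 9136 and 8614 CPM in IgG animals 1 to 4 and 7647, 12557, 5664 and 10487 CPM in antibody animals 1 to 4, or 0.566% to 1.26% of the scaled library. The 3 lowest sums were in antibody animals 3 and 1 and IgG animal 2, the same 3 libraries with the lowest shares of alignments assigned (27.9%, 29.6% and 24.4%). The adipocyte marker sum was 5695 CPM in antibody animal 3 and 2124 to 3000 CPM in the other 7, all 8 adipocyte genes being detected in every library. Lep, the leptin gene of that list, did not follow its sum and was lowest in antibody animal 3, at 7.39 CPM. Of the 8 adipocyte genes, 5 had a log2 fold change above 0 (median 0.29, background 47.7% of genes). Cidea alone passed the unadjusted threshold (background 3.19%), at 0.64 ± 0.24 (SE). Antibody animal 2, with the highest contractile sum, had the lowest adipocyte sum. Macrophage markers summed to 5362 to 14413 CPM with IgG and 6503 to 9630 CPM with the antibody. On average 0 of 14 were higher in antibody animals (background 47.7% of genes). Csf1r alone passed the unadjusted threshold (background 3.19%), at a log2 fold change of -0.38 ± 0.15 (SE). A single gene past it in each list is not a result about that list. The part of fat tissue, macrophage content or assignment share in the contractile values was not tested.

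**Figure D4:**
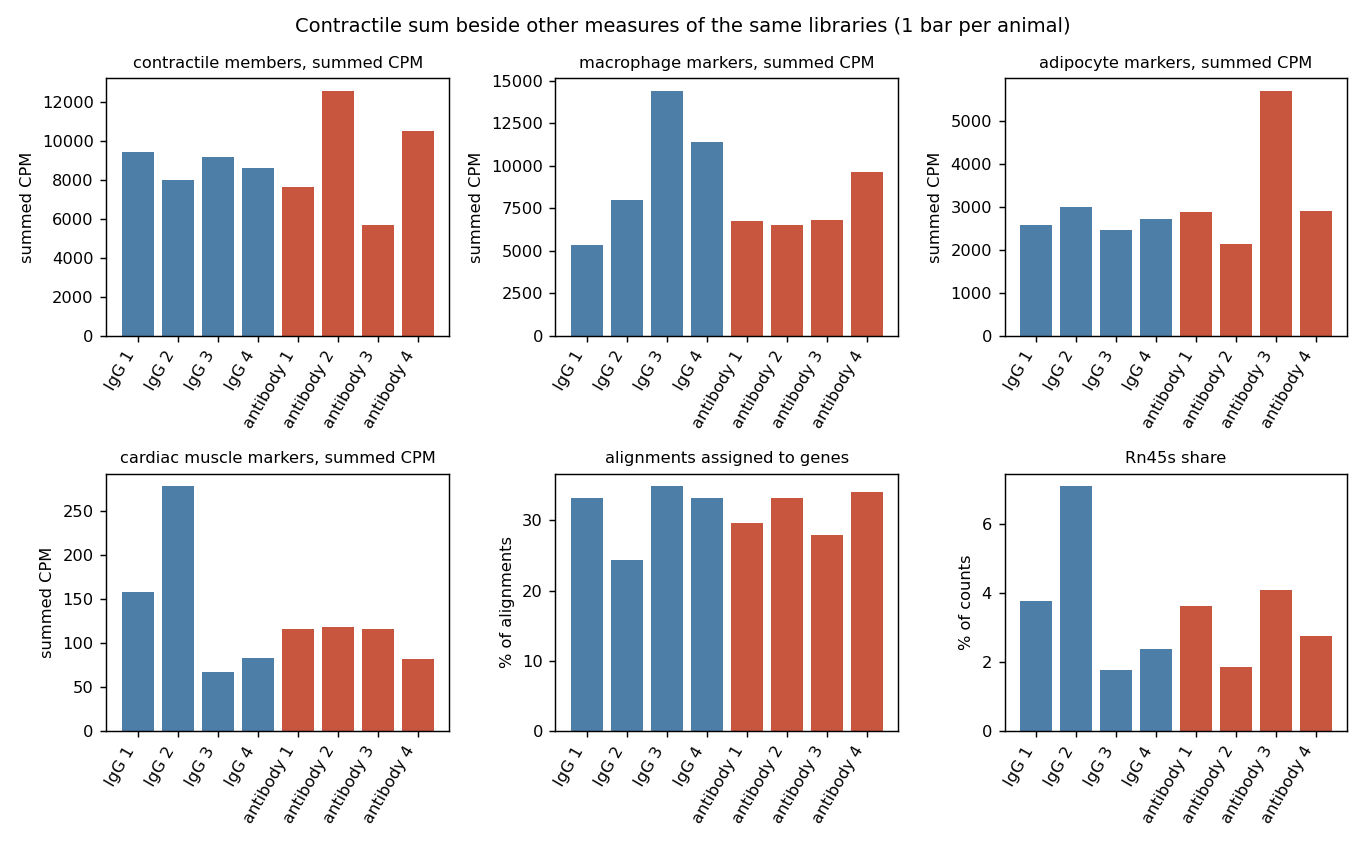
One bar per animal (blue IgG, red antibody) for the summed CPM of the 33 contractile genes, of the macrophage, adipocyte and cardiac marker lists, for the share of alignments assigned to genes, and for the share of counts taken by Rn45s. Antibody animal 3 has the lowest contractile and highest adipocyte sum, and IgG animal 2 the highest cardiac sum and Rn45s share.

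Per kilobase of exon, the order of the mean levels over 8 animals ran from Flna, at 360 ± 68.4 CPM per kilobase (SD, n = 8), and Acta2, at 278 ± 114, down to Agtr1a, at 2.90 ± 0.95. Tagln had 249 ± 105.5 CPM per kilobase, Myl9 161 ± 66.9, Myh11 160 ± 51.7, Csrp1 146 ± 32.1, Rgs5 98.9 ± 19.3 and Smtn 85.6 ± 23.0. Of these neighbours, Acta2 was above Tagln and Tagln above Myl9 in 8 of 8 animals. Flna was above Acta2 in 6 of 8 and Csrp1 above Rgs5 in 7 of 8, with mean log2 ratios of 0.47 ± 0.47 and 0.56 ± 0.48 (SD, n = 8). Myh11 was above Csrp1 in 5 animals, Rgs5 above Smtn in 5 and Myl9 above Myh11 in 4. The log2 ratios of these 3 pairs had means smaller than their SD, so their order changed from animal to animal. Further down, Srf had 8.42 ± 0.53 and Myocd 7.02 ± 1.72 CPM per kilobase, with Srf higher in 6 of 8 animals. Their log2 ratio was 0.30 ± 0.36 (SD, n = 8). Whether the mean levels of neighbours differ was not tested.

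**Figure D5:**
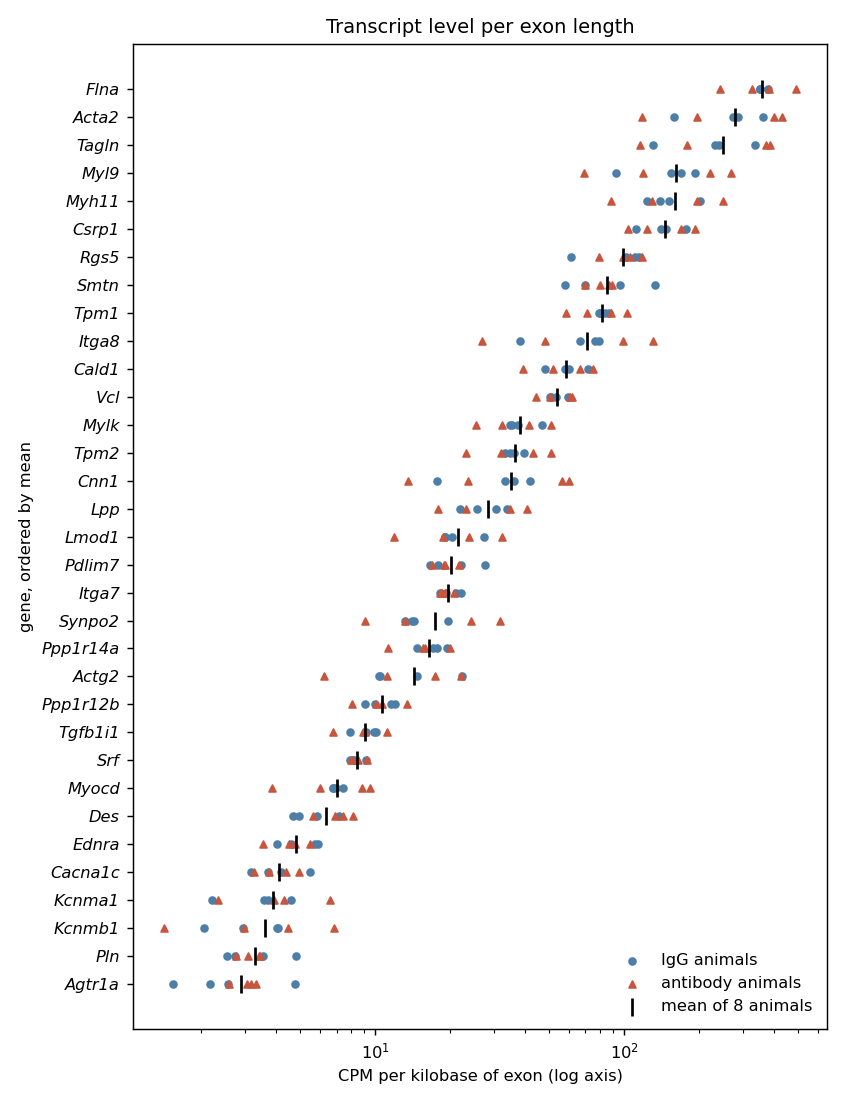
CPM per kilobase of exon (log axis) for each of the 33 genes in the 4 IgG animals (circles), the 4 antibody animals (triangles) and as the mean of 8 (bars), ordered by the mean. Levels run from 360 for Flna to 2.90 for Agtr1a, and the points of neighbouring genes overlap along most of the order.

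Other genes of the same pathway, listed by function, gave no call either. Of 18 SRF cofactors and regulators, 0 passed an adjusted p of 0.05 in edgeR and 0 an unadjusted p of 0.05 (background 3.19% of genes). In that list 3 were higher and 15 lower (47.7% of all genes were higher), with a median log2 fold change of -0.09. Klf4, a repressor of contractile genes, had the smallest p there, at -0.16 ± 0.12 (SE), and Mkl1, the myocardin-related factor MRTF-A, had -0.17 ± 0.15. Of 29 adhesion and actin linker genes, 13 were higher, 16 lower and 0 past either threshold, with a median of -0.01. The dystrophin-complex gene Sgca had 0.50 ± 0.35 (SE) and Synm, an intermediate filament gene, 0.20 ± 0.16.

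Of 24 contraction signalling genes, 0 passed the adjusted threshold and 1 an unadjusted p of 0.05 in edgeR, with 11 higher, 13 lower and a median of -0.01. A single gene of 24 is near the background of 3.19%, and so is not a result about the list. That gene was Adra1d, the α1D-adrenergic receptor, through which noradrenaline contracts large arteries. It had 8.72, 11.4, 6.20 and 8.504 CPM with IgG and 12.2, 13.4, 12.5 and 13.9 CPM with the antibody. The groups did not overlap, as for 1.96% of all genes, and the log2 fold change was 0.58 ± 0.18 (SE), with an unadjusted p of 0.00991 and an adjusted p of 0.9997 in edgeR. Ptgir, the prostacyclin receptor, had -0.28 ± 0.19 (SE), Cav1, caveolin-1, 0.17 ± 0.14 and Gucy1b3, a subunit of the nitric oxide receptor, 0.26 ± 0.27.

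Markers of phenotypically modulated smooth muscle were lower for 13 of 14 genes, where 47.7% of all genes were higher. Their median log2 fold change was -0.25, with 0 past an unadjusted p of 0.05. Their sum, 9372 to 25406 CPM with IgG and 9307 to 16651 CPM with the antibody, was highest in IgG animal 3. The genes of a list are not independent of one another, so such counts of direction carry no test. Pericyte genes, with 4 of 6 higher (median 0.04), had 0 past that threshold. Ndufa4l2, with the smallest p of these genes, had -0.24 ± 0.25 (SE), and Cspg4, a pericyte proteoglycan, 0.08 ± 0.12. Endothelial genes (2 of 10 higher, median -0.08) and adventitial fibroblast genes (0 of 8 higher, median -0.19) also had 0 past an unadjusted p of 0.05. Skeletal muscle markers summed to at most 81.1 CPM, in IgG animal 2, with 0 of 12 genes past an unadjusted p of 0.05. Of 9 cardiac genes 3 passed it (background 3.19% of genes): Myl7, Myh6 and Nppa, all lower with the antibody. Each had its highest value in IgG animal 2, for Nppa 67.4 CPM against at most 2.27 CPM elsewhere. In the cardiac list 1 of 9 was higher (median -1.59). Myl7 was also higher in IgG animals 1 and 3 (1.505 and 1.37 CPM) than in any antibody animal (at most 0.688 CPM). IgG animal 4 had 0.27 CPM. Outside IgG animal 2, Myh6 was highest in IgG animal 3 (4.255 CPM) and Nppa in antibody animal 4 (2.27 CPM). The part of IgG animal 2 in the count was not tested, so the count is not read as a result about the treatment.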

How the data were processed

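RNA sequencing libraries of 8 lesions, 4 per treatment, were used as 1 table of raw counts per gene symbol deposited by the authors, with a second deposited table of alignment counts by assignment status. The authors made the counts with featureCounts 1.4.6-p4 from exons of the UCSC mm9 annotation, grouped by gene name, and the command in the file header shows no option for strand or read pairs. Reads placed at several sites or over more than 1 gene were left out. The exons of 6 members (Des, Itga7, Lpp, Mylk, Itga8 and Tagln) overlap those of an opposite-strand gene, and reads over both would be left out of their counts. The submitters' processing notes also name the tools CASAVA, STAR and DESeq2, with no role. Exon lengths, another deposited column, served only for levels per kilobase.

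Groups came from the sample titles. Genes were kept by filterByExpr (minimum count 10, minimum total 15), scaled by TMM and tested with edgeR 4.0.16 (R 4.3.3, quasi-likelihood F-test, robust, no covariate), with Benjamini-Hochberg adjustment over 15980 genes. Standard errors and 95% intervals came from the same test. The fit was tested on simulated data. Alternatives were other scaling, no filter, DESeq2 1.42.0, a replicate block and leaving out animals. The libraries are labelled as separate animals, and no pair agreed within counting noise (lowest chi-square per degree of freedom 28.1). The members and lists were chosen with earlier results of these data known. Values in every animal are given for 12 fixed members, the 8 with the highest level per kilobase and the 6 with the smallest p, and up to 4 genes of other lists with the smallest p were eligible to be named.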

Additional observations from a re-analysis of the deposited data

Results flagged for a closer look

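Among 66 groups of 4 values (33 genes in each treatment), 2 held a value far from the other 3 by Dixon's criterion, where chance flags about 1 group in 20. Both were in IgG animal 1: Lmod1 had 108.2 CPM against 75.2 to 80.4 CPM in the other IgG animals, and Flna had 3160 CPM against 2939 to 2957 CPM. For Flna the gap is small in size, because the other 3 IgG animals lay very close together.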

How the results depend on the processing

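In all 14 alternatives 0 members had an adjusted p under 0.05. Among the members, the lowest adjusted p was 0.5106 (Agtr1a without IgG animal 1, edgeR). One alternative, leaving out both IgG animal 2 and antibody animal 3, was chosen after seeing the data. The count of members at an unadjusted p under 0.05 was 1 there and ranged from 0 to 1 with 1 animal left out. Over all genes, DESeq2 called 8 and leaving out 1 animal gave 0 to 1. Genes at an unadjusted p under 0.05 numbered 509, and 310 to 1517 with 1 animal left out. The members' median log2 fold change ranged from -0.15 to 0.16 with 1 animal left out.

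The correlations of same-numbered animals' deviations from their group means were 0.335, -0.389, -0.171 and 0.0287. Those of differently numbered animals ran from -0.574 to 0.54. Deviations from a mean of 4 animals are tied to one another, so these values cannot settle whether the replicate numbers pair the animals. With the replicate block the members' median was -0.0070 with 15 of 33 above 0, the counts of calls stayed 0, and 361 genes had an unadjusted p under 0.05. In this paired fit Acta2 (-0.033), Tpm2 (-0.0070), Lmod1 (-0.061), Flna (-0.038) and Myocd (-0.064) fell below 0. With total counts only, Actg2 (0.026), Cald1 (0.011), Ppp1r12b (0.015) and Cacna1c (0.012) rose above 0. Without both IgG animal 2 and antibody animal 3, values above 0 were reached by Actg2 (0.12), Tpm1 (0.077), Cald1 (0.051), Smtn (0.15), Mylk (0.11), Ppp1r12b (0.15), Ppp1r14a (0.0051), Pdlim7 (0.090), Tgfb1i1 (0.13), Cacna1c (0.25) and Pln (0.092).

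With 1 animal left out, log2 fold changes of 27 members took both signs. Filament genes ranged for Acta2 from -0.17 to 0.35, Actg2 from -0.31 to 0.27, Myh11 from -0.16 to 0.32, Myl9 from -0.15 to 0.42, Tpm1 from -0.19 to 0.080 and Tpm2 from -0.14 to 0.22. Regulators ranged for Cnn1 from -0.047 to 0.53, Cald1 from -0.18 to 0.12, Tagln from -0.072 to 0.41, Smtn from -0.29 to 0.13, Lmod1 from -0.25 to 0.22, Mylk from -0.23 to 0.10 and Ppp1r12b from -0.16 to 0.093. Cytoskeleton and adhesion genes ranged for Flna from -0.18 to 0.16, Vcl from -0.046 to 0.11, Csrp1 from -0.12 to 0.17, Pdlim7 from -0.23 to 0.018, Lpp from -0.14 to 0.24, Tgfb1i1 from -0.16 to 0.072 and Itga8 from -0.17 to 0.51. Channel and receptor genes ranged for Cacna1c from -0.13 to 0.15, Kcnmb1 from -0.15 to 0.54, Pln from -0.22 to 0.11, Agtr1a from -0.062 to 0.54 and Rgs5 from -0.12 to 0.14. Srf ranged from -0.030 to 0.063 and Myocd from -0.16 to 0.22. The cause of these changes was not tested. The other 6 kept 1 sign with 1 animal left out but not their size: Des ranged from 0.23 to 0.44, Synpo2 from 0.020 to 0.59, Kcnma1 from 0.0042 to 0.49, Ednra from -0.25 to -0.042, Itga7 from -0.12 to -0.028 and Ppp1r14a from -0.27 to -0.0050. The lowest count of any member in any library was 98 (Agtr1a), and the effect of depth was not tested.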

Other observations

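Ratios of members within an animal, per kilobase of exon, were compared for pairs chosen after the values were seen. Tagln over Acta2, both markers of differentiated smooth muscle, lay between 0.822 and 0.983 in the 8 animals while each gene alone varied by more than 3-fold. Cnn1 over Smtn lay between 0.133 in IgG animal 2 and 0.860 in antibody animal 4. Myh11 over Acta2 was 0.342 in IgG animal 3 and 0.956 in IgG animal 2, so the filament genes did not keep one proportion. The α8 over α7 integrin ratio, Itga8 over Itga7, ran from 1.48 in antibody animal 3 to 6.85 in antibody animal 2, and Acta2 over Srf from 14.6 to 50.5 in the same animals.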
